A study of Mus musculus with 6 samples.

Results

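The 3 Tribbles pseudokinase genes *Trib1*, *Trib2* and *Trib3*, together with *Cop1*, the E3 ubiquitin ligase gene whose product they recruit, were followed in leukemia stem cells (LSCs) with and without deletion of *Piezo1*. They were chosen by symbol, and all 4 were among the 55367 genes listed. Their difference between genotypes was known when they were chosen, so their values are given as a description, with standard errors and without p-values. The series held 6 mRNA sequencing libraries of LSCs sorted from bone marrow of AML mice, 3 labelled WT and 3 labelled *Piezo1*cKO. The age given, 8 to 10 weeks, is in the study that of donor and recipient mice when used. The age at sorting is not stated. *Piezo1*cKO cells derived from *Mx1-cre; Piezo1* fl/fl donors given pIpC, and WT cells from *Piezo1* fl/fl littermates without Cre given the same inducer. Both groups therefore carried the floxed allele, the inducer and a retroviral *MLL-AF9* fusion oncogene with a YFP reporter. Donor marrow cells with this fusion were transplanted into irradiated recipient mice. *Mx1-cre* responds to interferon and is not restricted to LSCs. The gate was Lin-, Sca-1-, c-Kit+, CD16/32hi, CD34+ and YFP+.

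Tribbles proteins resemble kinases but have little or no catalytic activity, and act as scaffolds. A tail motif binds COP1 while the pseudokinase domain holds a substrate, so that the substrate is ubiquitinated and degraded. Trib1 and Trib2 deliver the myeloid transcription factor C/EBPα to COP1 in this way, also bind the MAP kinase kinase MEK1, and cause AML when overexpressed in mouse marrow. Trib3 is best known as a target of the ATF4 and CHOP branch of the stress response and as a binding partner of AKT, and is not known for driving C/EBPα loss.

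The promoters of the members are shown because *Trib3* and *Trib2* were the members with the lowest relative level in *Piezo1*cKO LSCs. The RefSeq table (GRCm38.p6) had an entry for *Trib2*, *Trib3* and *Cop1*. Each printed sequence runs from 150 bases before to 30 bases after the RefSeq transcription start, 5′ to 3′ on the strand of the gene, and capitals mark matches to the motifs searched. *Trib2* is on the minus strand at chr12:15816756-15816935, *Trib3* on the minus strand at chr2:152344031-152344210, and *Cop1* on the plus strand at chr1:159232050-159232229.
Trib2: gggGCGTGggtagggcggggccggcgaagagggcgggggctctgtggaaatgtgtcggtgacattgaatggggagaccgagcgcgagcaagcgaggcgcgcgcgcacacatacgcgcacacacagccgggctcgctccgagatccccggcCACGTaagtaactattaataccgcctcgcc
Trib3: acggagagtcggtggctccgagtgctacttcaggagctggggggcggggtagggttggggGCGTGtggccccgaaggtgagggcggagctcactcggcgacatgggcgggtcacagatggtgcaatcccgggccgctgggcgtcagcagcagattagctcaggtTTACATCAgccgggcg
Cop1: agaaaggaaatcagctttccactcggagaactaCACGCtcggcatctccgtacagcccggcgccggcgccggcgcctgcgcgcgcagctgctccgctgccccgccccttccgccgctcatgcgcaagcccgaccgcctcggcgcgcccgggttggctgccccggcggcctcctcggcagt

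4 motifs were searched on both strands of windows reaching 250 bases before and 50 bases after the start. TGATGNAA, the C/EBP-ATF composite element through which ATF4 acts, was in 3.97% of all 32851 windows. *Trib3* held it on the minus strand at positions 15 to 22 after its start. *Trib2* and *Cop1* had no match in this window. ACGTG and GCGTG, the cores bound by hypoxia-inducible factors, were in 19.6% and 32.4% of windows. CACGTG, an E-box that contains ACGTG, was in 7.15%. *Trib2* held ACGTG on the minus strand at positions 1 to 5, and GCGTG at positions -147 to -143 and 42 to 46. *Trib3* held GCGTG at -90 to -86, and *Cop1* held it on the minus strand at -117 to -113. These matches are descriptions of letters and not of binding.

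The deposited values were on a log2 scale of the regularized-log form, which pulls the libraries of a gene toward their common mean, most strongly where reads are few. Inverting that transform returned whole reads, with 14112116 to 15483611 per library. Both scales are given below: deposited log2 values, and recovered reads, also as CPM, reads per 1000000 reads of the library. *Piezo1*, the deleted gene, had 104, 92 and 113 reads in WT and 35, 58 and 45 in *Piezo1*cKO LSCs, or 46.5% of the WT CPM. The counts covered the whole gene, part of whose exons overlap exons of *Ctu2* on the opposite strand, so they checked the labels without measuring the deleted part alone. The gate genes *Kit*, *Cd34* and *Fcgr3* were at 169, 250 and 363 CPM in WT LSCs and 233, 394 and 362 CPM in *Piezo1*cKO LSCs. *Ly6a*, which encodes the excluded Sca-1, had 2 reads over the WT and 34 over the *Piezo1*cKO libraries. In bulk libraries, fewer cells of a type and less RNA per cell cannot be told apart.

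*Trib3* was the member whose level differed most. It lies on chromosome 2 from 152337422 to 152344032 on the minus strand (GRCm38), with 4 exons in its coding transcript. The WT libraries had 1549, 1565 and 1649 reads, against 14, 12 and 26 in the *Piezo1*cKO libraries. No library of one genotype came near the other genotype, and the highest *Piezo1*cKO library was replicate 3. The level was 104 ± 3.34 CPM (SD, n = 3) in WT and 1.20 ± 0.53 CPM (SD, n = 3) in *Piezo1*cKO LSCs, which is 1.14% of WT. The ratio of pooled CPM was 87.6, with an exact 95% counting interval of 66.7 to 118. In WT LSCs the spread between libraries was 3.20% of the mean, where counting alone gives 2.51%, and in *Piezo1*cKO LSCs it was 44.5% against 24.0%. The low level was thus measured far less precisely than the high one.

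On the deposited scale *Trib3* was at 9.87, 9.92 and 9.93 in WT and at 6.71, 6.65 and 6.83 in *Piezo1*cKO LSCs. The log2 fold change was -3.17 (standard error 0.04), below that of all 16745 other genes tested. On recovered reads it was -6.53 (standard error 0.24), and 17 genes were lower. The deposited values therefore state a much smaller change for the same libraries, and both values come from the same reads.

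*Trib2* was rare in all libraries. The gene spans chromosome 12 from 15791727 to 15816922 on the minus strand, with 3 exons. The WT libraries had 11, 6 and 8 reads, and none of the *Piezo1*cKO libraries had a read. The groups did not overlap, although the WT level rested on 25 reads in total. The WT level was 0.55 ± 0.16 CPM (SD, n = 3). For a library with a count of 0 a fixed limit of 3 reads was set, or 0.199 to 0.213 CPM in the *Piezo1*cKO libraries. The exact 95% Poisson interval of a count of 0 reaches 3.69 reads. Against the fixed limit of 3 reads per library, *Trib2* was at least 2.65-fold lower. The error of the WT mean is left out, so this is no 95% bound.

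The deposited values of *Trib2* were 2.05, 2.01 and 2.03 in WT and 1.97 in each *Piezo1*cKO library. Their log2 fold change was -0.06 (standard error 0.01), beside a fitted -4.07 on recovered reads that depends on the prior count added to the zeros and is no bound. The plot of both scales shows *Trib2* far to the left but with almost no change on the y axis. A loss of all reads left its deposited values almost level.

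**Figure D1:**
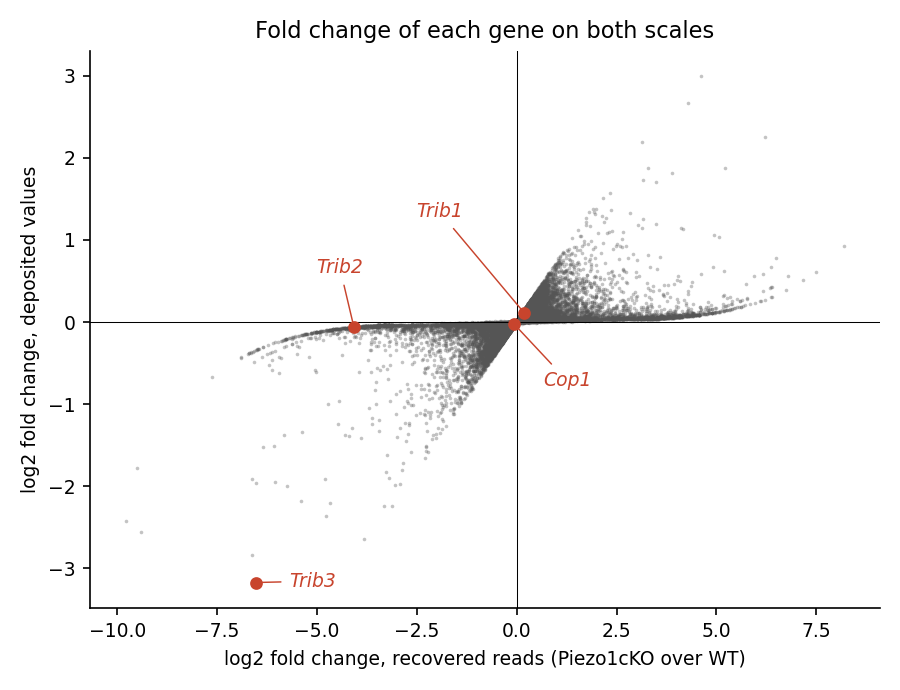
Log2 fold change, *Piezo1*cKO over WT, on recovered reads (x axis) and on the deposited values (y axis). Each grey point is a gene tested on both scales and red points are the members. *Trib3* stood at -6.53 and -3.17, *Trib2* at -4.07 and -0.06, *Trib1* at 0.19 and 0.11 and *Cop1* at -0.07 and -0.02.

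*Trib1*, which like *Trib2* can drive AML, had the opposite sign. The gene lies on chromosome 15 from 59648350 to 59657099 on the plus strand, with 3 exons. It had 310, 333 and 361 reads in WT and 361, 369 and 389 reads in *Piezo1*cKO LSCs. In CPM the libraries were at 20.1, 22.6 and 23.3 in WT and at 25.6, 24.4 and 26.9 in *Piezo1*cKO LSCs. The lowest *Piezo1*cKO library was above the highest WT library by a narrow margin. The ratio of *Piezo1*cKO to WT pooled CPM was 1.16, with an exact 95% counting interval of 1.07 to 1.27. That interval leaves out the spread between libraries and is no test of the difference. The spread was 7.60% of the mean in WT LSCs, where counting alone gives 5.47%, and 4.80% against 5.18% in *Piezo1*cKO LSCs. The deposited log2 values were 8.34, 8.42 and 8.45 in WT and 8.51, 8.48 and 8.55 in *Piezo1*cKO LSCs. The log2 fold change was 0.11 (standard error 0.04), and it was 0.08 without WT replicate 1 and 0.09 without *Piezo1*cKO replicate 3.

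*Cop1*, the ligase gene itself, had overlapping groups. It spans chromosome 1 from 159232320 to 159347640 on the plus strand, and its longest coding transcript has 20 exons. There were 139, 107 and 131 reads in WT and 112, 138 and 101 reads in *Piezo1*cKO LSCs. The level was 8.25 ± 0.90 CPM (SD, n = 3) in WT and 8.02 ± 1.08 CPM (SD, n = 3) in *Piezo1*cKO LSCs. The deposited values were 6.97, 6.86 and 6.93 in WT and 6.90, 6.97 and 6.83 in *Piezo1*cKO LSCs, so that the log2 fold change was -0.02 (standard error 0.04). The difference was smaller than its error, and its sign turned to 0.0016 when the libraries were set to equal medians.

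**Figure D2:**
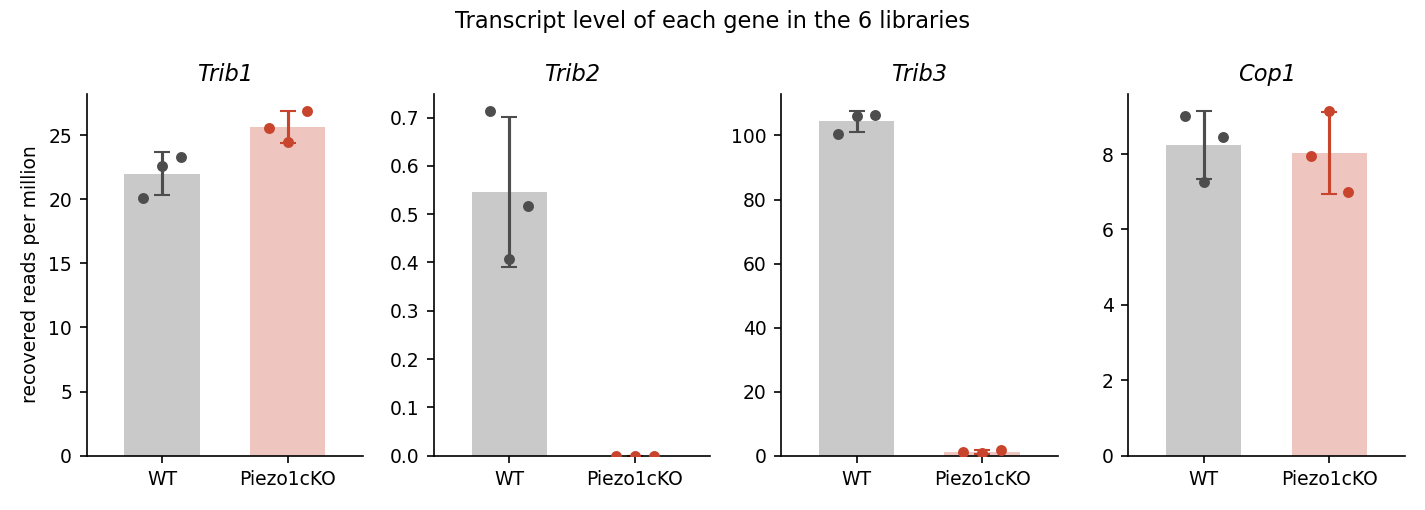
CPM of recovered reads (y axis, from 0, a separate scale for each gene) of the 4 genes by genotype. Points are libraries, bars are means and error bars are SD (n = 3). *Trib3* averaged 104 in WT and 1.20 in *Piezo1*cKO LSCs, *Trib2* was at 0 in each *Piezo1*cKO library, and the *Cop1* groups overlapped.

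At an adjusted p under 0.05 on the deposited values, *Trib1*, *Trib2* and *Trib3*, 3 of the 4 members, were called, beside 63.0% of all genes tested. Past the study's thresholds for differentially expressed genes (DEGs), an absolute log2 fold change over 1 as well, 1 of the 4 was called on deposited values (*Trib3*; background 0.818%) and 2 on recovered reads (*Trib2* and *Trib3*; background 24.9%). The study applied those thresholds to fold changes from counts. Changes are smaller on the deposited values, so the same cut is stricter there and not comparable with the study's. For 3 of the 4 the groups did not overlap, beside 66.6% of genes on deposited values and 66.1% on recovered reads. Without WT replicate 1 or without *Piezo1*cKO replicate 3, *Trib1* was no longer called and 2 of the 4 remained. *Trib2* passed the read filter through its WT reads alone, and its fitted change on recovered reads depends on the prior count. Its call there is therefore no evidence of the size of the change. The counts of called members are given for orientation, since the members were chosen on this contrast.

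Levels of different genes were compared only after division by exon length, as CPM per kilobase of merged exons. In WT LSCs *Trib3* was at 49.1 ± 1.57, *Trib1* at 3.52 ± 0.27, *Cop1* at 0.47 ± 0.05 and *Trib2* at 0.13 ± 0.04 (SD, n = 3). The libraries of neighbours in this order did not overlap. In *Piezo1*cKO LSCs *Trib1* came first at 4.10 ± 0.20, followed by *Trib3* at 0.56 ± 0.25 and *Cop1* at 0.46 ± 0.06, which overlapped, and *Trib2* at 0. The order of those neighbours also rested on the length used. With the longest coding transcript of *Cop1*, 5116 in place of 17516 bases, *Cop1* was at 1.57 ± 0.21 and *Trib3* at 0.59 ± 0.26 in *Piezo1*cKO LSCs, and the libraries of the pair no longer overlapped.

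The make-up of the Tribbles family was reversed between genotypes. *Trib3* made up 92.9 to 93.3% of the summed Tribbles level per kilobase in WT libraries, and 8.73 to 16.4% in *Piezo1*cKO libraries. *Trib1* made up 6.35 to 6.91% in WT and 83.6 to 91.3% in *Piezo1*cKO libraries. Within a library, *Trib3* was 13.4 to 14.7 times *Trib1* in WT, while *Trib1* was 5.09 to 10.5 times *Trib3* in *Piezo1*cKO LSCs. These ratios are set within each library and do not depend on scaling between libraries, but their size and that of the shares depend on the length used. By the longest transcript, *Trib3* and *Trib1* were at 51.5 and 5.08 CPM per kilobase in WT LSCs. In *Piezo1*cKO LSCs they were at 0.59 and 5.92, so the order was still reversed. The summed level of the 3 genes was 50.7 to 54.0 in WT and 4.29 to 5.15 in *Piezo1*cKO libraries.

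**Figure D3:**
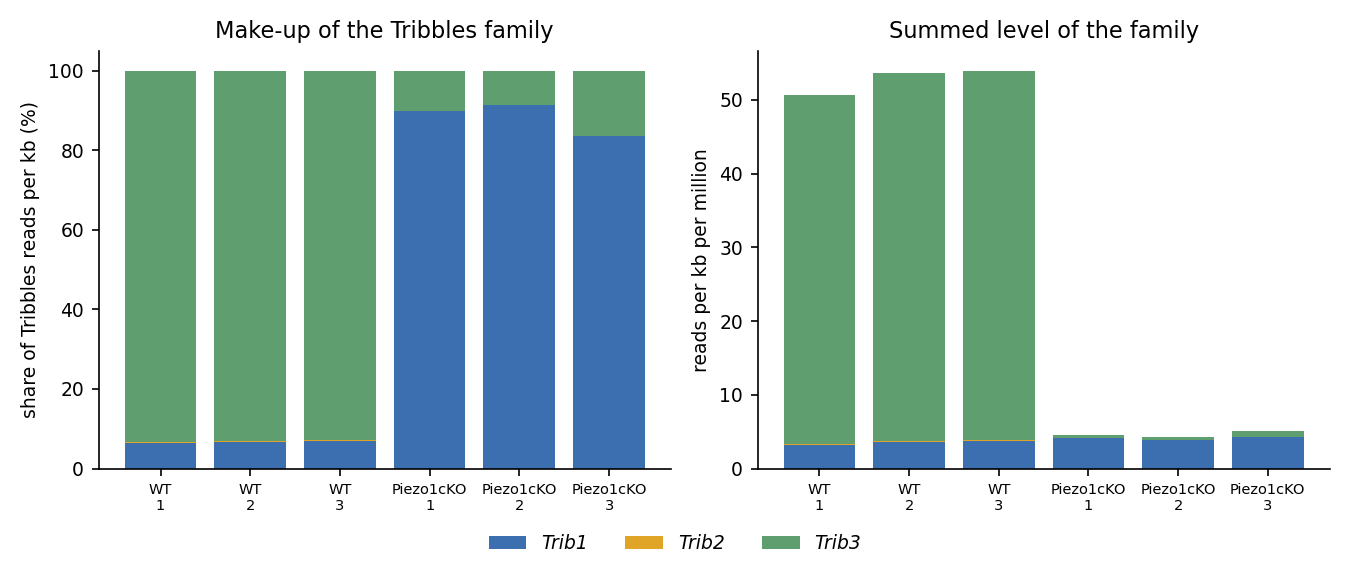
Share of the summed Tribbles level per kilobase held by each gene (left, %) and the summed level itself (right, CPM per kb of merged exons) in each of the 6 libraries. *Trib3* filled 92.9 to 93.3% of each WT bar and 8.73 to 16.4% of each *Piezo1*cKO bar.

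Likeness of profile was searched among 8292 genes that averaged 10 CPM or more, and the 3 whose centred log2 CPM profile over the 6 libraries was nearest to each member were listed. Likeness was the root mean square difference between profiles. For *Trib3* they were *Rbm44* (0.25), *Rps3a2* (0.35) and *Xlr* (0.54). *Rps3a2* and *Xlr* belong to families of near-identical copies, so their counts are uncertain. For *Trib2* they were *Cd300lf* (0.23), *Cd14* (0.29) and *Prdm16* (0.33), all far more abundant than *Trib2*. For *Trib1* they were *Zfp956* (0.02), *Nmi* (0.03) and *Pja1* (0.03), and for *Cop1* they were *Armc7* (0.05), *AW554918* (0.06) and *Abcc1* (0.07). On the deposited values the list was shared in full for *Trib1*, in 2 of 3 genes for *Cop1*, in 1 of 3 for *Trib3* and in none for *Trib2*. With no read in *Piezo1*cKO LSCs, the log2 CPM profile of *Trib2* depends on the prior count added to the zeros. So do the genes nearest to it.

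The other genes of the pathway were taken from 7 lists with 63 genes in all, tested with limma on the deposited values. Of all genes tested, 31.6% rose and 31.4% fell by the same adjusted p threshold of 0.05, and the median log2 fold change was 0.0006. Percentages of WT given below for list genes are ratios of mean CPM of recovered reads. The adjusted p-values beside them test the deposited values, on which the changes are smaller. The lists, like the members, were chosen with earlier results of these data known. Their adjusted p-values and counts are therefore descriptions and no independent support.

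Of 7 genes for partners of COP1 in its ligase complex or of its substrates, 6 fell, none rose and *Rbx1* did not pass the test, with a median log2 fold change of -0.18. The largest change was in *Stk40*, which encodes a pseudokinase related to the Tribbles proteins that also bridges COP1 to substrates. *Stk40* had 283, 287 and 380 reads in WT and 84, 89 and 59 reads in *Piezo1*cKO LSCs. Its groups were far apart, at 25.5% of the WT CPM (limma adjusted p = 2.26e-10). The scaffold gene *Cul4a* fell to 73.1% and *Det1*, which links COP1 to the DDB1-CUL4 core, fell to 75.2% (limma adjusted p = 6.32e-08 and 3.12e-05). *Ddb1*, the adaptor of that core, fell to 85.4%, *Cul4b* to 83.2% and *Dda1* to 93.6%. *Rbx1*, the RING subunit, was at 105% of WT (adjusted p = 0.25).

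Genes of the COP9 signalosome, the complex that removes the activating tag NEDD8 from cullins, moved in both directions. Of 10 subunit genes, 4 rose, 5 fell and *Cops5*, which encodes the catalytic subunit, did not pass the test (106% of WT, limma adjusted p = 0.18). The members ranged from 82.8% of WT for *Cops2* to 123% for *Cops9*, and their median log2 fold change was -0.02. On recovered reads *Cops6* was not called, which left 3 higher.

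The mRNAs of proteins degraded through COP1 also moved both ways. Of 9 genes 8 were tested, 3 rose, 4 fell and *Etv4* did not pass, with a median of -0.07. *Etv1* had 1 read over all libraries and was not tested. *Cebpa*, which encodes the C/EBPα substrate of Trib1 and Trib2, had 121, 121 and 133 reads in WT and 270, 287 and 279 reads in *Piezo1*cKO LSCs. It rose to 233% of WT with no overlap between groups (limma adjusted p = 5.31e-10). *Cebpb*, a related factor of emergency granulopoiesis and stress, had 976, 932 and 999 reads in WT and 31, 36 and 35 in *Piezo1*cKO LSCs. It fell to 3.66% of WT (limma adjusted p = 8.00e-20). The ETS factor gene *Etv5* rose to 270% and *Jun* to 117%, while *Trp53* fell to 74.0%, the fatty acid synthesis gene *Acaca* to 71.4% and the CREB coactivator gene *Crtc2* to 86.6%. mRNA levels do not measure the degradation of these proteins.

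Of 9 genes for kinases bound by Tribbles proteins, or for their substrates, 3 rose and 5 fell, with a median of -0.17. *Akt2*, one of the AKT kinases bound by Trib3, fell to 63.4% (limma adjusted p = 6.30e-10), while *Akt1* rose to 117% (adjusted p = 0.0098). *Map2k1*, which encodes MEK1, fell to 84.1% and *Map2k2* to 69.9%. *Mapk3*, which encodes a substrate of theirs, rose to 126% of WT. *Map2k4* fell to 71.4% and *Map2k7* rose to 123%. No gene of this list passed the DEG thresholds on either scale.

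Genes upstream of *Trib3* in the stress response fell in 8 of 10 cases, rose in 1 and did not pass the test in 1, with a median of -0.22 on deposited values and -0.74 on recovered reads. *Atf4*, which encodes the central activator, had 1165, 1073 and 1218 reads in WT and 668, 722 and 697 in *Piezo1*cKO LSCs, or 63.1% of WT (limma adjusted p = 1.27e-09). *Ddit3*, which encodes CHOP, the partner of ATF4 at *Trib3*, had 325, 282 and 285 reads in WT and 78, 80 and 79 in *Piezo1*cKO LSCs. It fell to 27.8% (limma adjusted p = 5.68e-12). *Cebpg*, another partner of ATF4, fell to 42.0%. Both groups of each of these genes were well separated, and the fall was smaller than the difference in *Trib3* itself.

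*Atf3*, a stress-induced repressor, had 26, 25 and 32 reads in WT and none in *Piezo1*cKO LSCs, so that it was at least 8.81-fold lower against the limit of 3 reads per library. *Nupr1*, a small stress-induced chromatin protein gene, had 752, 686 and 751 reads in WT and 0, 1 and 1 in *Piezo1*cKO LSCs. Its ratio of pooled CPM was 1047, with an exact 95% counting interval of 290 to 8652. *Atf3* and *Nupr1* were the 2 of 10 genes of this list whose promoter window held TGATGNAA. The motif was also in 2 of the 6 windows of the kinase list, those of *Akt2*, which fell, and *Map2k7*, which rose, and in 0 windows of the other lists. Of the kinases that phosphorylate eIF2α, *Eif2ak3* (PERK) fell to 59.8% and *Eif2ak4* (GCN2) to 73.1%. *Eif2ak2* (PKR) rose to 139%, and *Eif2ak1* (HRI) was at 104% (limma adjusted p = 0.54). *Eif2s1*, which encodes their substrate, fell to 81.4%.

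Of 6 genes for transcription factors that act with or above Trib1 and Trib2 in leukemia, 2 rose, 2 fell and 2 did not pass, with a median of -0.03. *Hoxa9*, the homeobox partner in Tribbles-driven AML and a target of MLL-AF9, was at 230 ± 7.39 CPM in WT and 233 ± 16.2 CPM in *Piezo1*cKO LSCs (limma adjusted p = 0.95). Its cofactor gene *Meis1* fell to 87.9% (adjusted p = 0.0028) and *Pbx3* rose to 201% (adjusted p = 3.85e-10). *E2f1*, an activator of *Trib2*, was at 91.9% (limma adjusted p = 0.10). *Tal1*, a hematopoietic factor linked to *Trib2* in T cell leukemia, had 0, 2 and 0 reads in WT and 31, 43 and 38 in *Piezo1*cKO LSCs. The ratio was 58.5, with an exact 95% counting interval of 15.8 to 489. *Spi1*, which encodes PU.1, fell to 79.0%.

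Granulocytic genes switched on by C/EBP factors fell in 9 of 12 cases, rose in 1 and did not pass in 2, with a median of -0.31 on deposited values. The secondary granule genes *Ngp* and *Camp* fell to 11.1% and 14.8% of WT (limma adjusted p = 6.42e-18 and 2.08e-16). *Lcn2*, of the same granules, had 105, 100 and 67 reads in WT and 78, 63 and 70 in *Piezo1*cKO LSCs, or 81.1% of WT, and did not pass (limma adjusted p = 0.13). *Ltf*, another of them, had 2, 6 and 6 reads in WT and none in *Piezo1*cKO LSCs. The primary granule genes *Elane*, *Mpo* and *Prtn3* fell to 47.5%, 55.1% and 55.2%. *Csf3r*, the G-CSF receptor gene, fell to 67.7% and *Gfi1* to 76.0%. *Cebpe*, which drives late granulopoiesis, rose to 111% (adjusted p = 0.0066), and *Il6ra* was at 102% (limma adjusted p = 0.82).

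Markers of other cells were measured beside these results. The 5 mature neutrophil markers summed to 17.0 to 18.1 CPM in WT and 3.51 to 4.50 CPM in *Piezo1*cKO libraries, with 1 and 2 of them at 0. Most of the WT sum was *S100a8*, with 660 reads over the WT and 56 over the *Piezo1*cKO libraries, while *Cxcr2* had 91 and 111 reads and *Ly6g* 1 and 0. The 5 mast cell and basophil markers, none at 0, summed to 195 to 204 CPM in WT and 654 to 666 CPM in *Piezo1*cKO libraries. The 5 erythroid markers summed to 8.05 to 9.70 CPM and 2.42 to 2.78 CPM, with none at 0 in WT and 1 at 0 in *Piezo1*cKO LSCs. B cell markers summed to 103 to 107 CPM and 163 to 179 CPM, almost entirely from *Cd79b*, with 1 of the 5 at 0 in WT and 3 at 0 in *Piezo1*cKO LSCs. T cell markers summed to at most 0.71 CPM. The sums of the macrophage and of the eosinophil markers overlapped between genotypes, at 61.2 to 70.2 CPM and 466 to 509 CPM over all libraries, but single markers in them differed. Of the eosinophil markers, *Epx* was at 135 CPM in WT and 32.5 CPM in *Piezo1*cKO LSCs and *Ear6* had 75 and 3 reads, while *Prg2* was at 339 and 419 CPM and *Siglecf* at 13.6 and 25.1 CPM. Of the macrophage markers, *C1qb* had 2 and 33 reads and *Mrc1* 0 and 32, while *Adgre1* was at 41.0 and 42.5 CPM. The part of these markers in the granulocytic, *Trib3* and *Trib2* results was not tested.

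**Figure D4:**
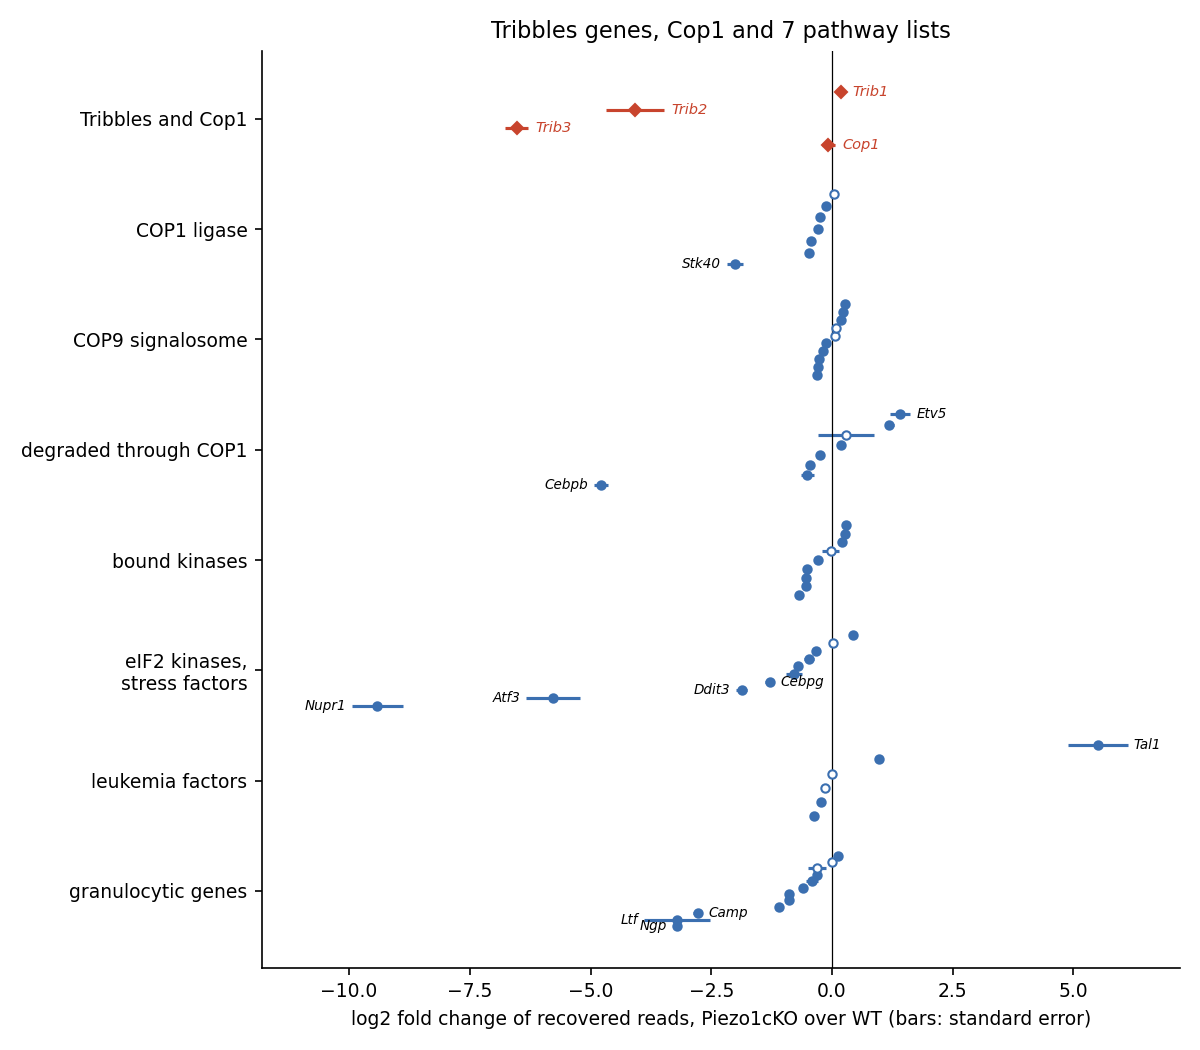
Log2 fold change of recovered reads, *Piezo1*cKO over WT (x axis, error bars are the standard error), for the 4 members (red diamonds) and the tested genes of 7 pathway lists (blue; filled at an adjusted p under 0.05, limma-voom). *Trib3* at -6.53 and *Trib2* at -4.07 lay on the lower side with *Nupr1*, *Atf3* and *Cebpb*, while *Trib1* and *Cop1* lay near 0; the values of *Trib2*, *Atf3* and *Ltf*, which had no read in *Piezo1*cKO LSCs, depend on the prior count.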

How the data were processed

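The authors deposited 1 table of log2 values for 55367 genes in 6 libraries. Its transform is not given in the sources used here, and the values had the regularized-log form. Reads came from oligo-dT, Smart-seq2-based, Tn5-fragmented, unstranded libraries, and the submitters' processing notes name fastp 0.20.1, HISAT2 2.2.1, GRCm38, featureCounts 2.0.1 and DESeq2 1.28.1. Such values compress changes of rare genes. The transform was inverted numerically (penalty parameter 22.7), which gave values within 0.1 of a whole read for 94.8% of all values. With the penalty 10% off, the share of all values was 44.2%, against 94.8% with the fitted penalty, to which the next shares belong. The members' largest gap from a whole read was 0.12, and when tested on simulated data, 100% of the reads of 7460 genes were recovered. Reads had no molecular identifiers, so intervals and limits cover counting error only. Intervals of ratios were taken on reads pooled over the libraries of a genotype and leave out the spread between libraries.

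Genes with a mean of at least 1 (16746) were fitted with limma 3.58.1 (R 4.3.3, trended variance, Benjamini-Hochberg over all genes tested), WT against *Piezo1*cKO. Tested on simulated data, the fit found 200 of 200 changed genes on log2 values, with 8 false calls. Recovered reads (17352 genes with at least 10 reads) were fitted with limma-voom as the alternative, after scaling by trimmed means of log ratios (TMM), and there the simulation found 160 of 189. In both simulations the changed genes were set past the DEG threshold of fold change. They therefore do not measure how often smaller changes, such as that of *Trib1*, would be found. Exons came from GENCODE M21 annotation, which matched 96.8% of genes with values. The members' exons overlapped no exon of another gene, and the longest exact run shared by their transcripts was 18 bases. The labels do not say that replicates were separate animals, so p-values may measure technical spread. The members and all lists were chosen with earlier results of these data known. The named genes were the members, *Piezo1*, the list genes and the 3 genes most like each member. Other settings were no filter, a mean of at least 5, library totals, equal library medians, a replicate block, each library left out and other gene lengths. Protein sequences were not used here. Values of some list genes are not reported here.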

Additional observations from a re-analysis of the deposited data

How the results depend on the processing

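The scale decided most. On recovered reads 4317 genes passed the DEG thresholds in place of 137, 4333 with library totals and 4356 with the replicate number as a block (added after seeing the data), while 10928, 10913 and 11250 genes in place of 10556 were at an adjusted p under 0.05. On those 3 settings the log2 fold change was 0.19, 0.22 and 0.19 for *Trib1*, -4.07, -4.04 and -4.08 for *Trib2* and -6.53, -6.50 and -6.46 for *Trib3*. Equal library medians moved *Trib2* to -0.040. Leaving out each library in turn gave 134 to 144 DEGs and 9596 to 10121 genes at an adjusted p under 0.05 on deposited values, with *Trib1* at 0.078 to 0.13, *Trib2* at -0.07 to -0.053, *Trib3* at -3.23 to -3.13 and *Cop1* at -0.06 to 0.01. On recovered reads, chosen as an alternative for these fits after seeing the data, it gave 3812 to 3966 DEGs, with *Trib1* at 0.14 to 0.23, *Trib2* at -4.25 to -3.86, *Trib3* at -6.86 to -6.27 and *Cop1* at -0.17 to 0.025. *Trib1* was then no longer called without WT replicate 1 or 2, or without *Piezo1*cKO replicate 1 or 3. *Trib2* was not tested at a mean of at least 5.

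Same-numbered libraries deviated from their group means with correlations across genes of 0.20, 0.16 and 0.07. Pairs with other numbers were at -0.17 to 0.03, so that each library correlated best with its own number. The labels state no pairing and the main fit used none. Whether same-numbered libraries shared a batch was not tested. The replicate block left 137 DEGs on deposited values, with 11055 genes at an adjusted p under 0.05, and *Trib3* at -3.17. By the longest transcript, *Cop1* was at 1.18 CPM per kilobase in WT and 1.15 in *Piezo1*cKO LSCs, and by the longest coding transcript, a length chosen after seeing the data, at 1.61 and 1.57. Depth limited *Trib2*, with 25 reads in all, and the *Piezo1*cKO level of *Trib3*, with 52.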
